A study of Mus musculus with 10 samples.

Results

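The regions described here lay at 4 genes that code for inflammatory enzymes, Acod1 (also called Irg1), Nos2, Ptgs2 and Sod2. Every region of 7 RelA and 2 glucocorticoid receptor (GR) lists that touched 1 of 4 windows of the mouse genome (build mm9) was taken. The windows were chr14:103410000-103500000 for Acod1, chr11:78690000-78810000 for Nos2, chr1:151890000-152000000 for Ptgs2 and chr17:13160000-13230000 for Sod2. They held 57 regions (30 of RelA and 27 of GR) of 114312 in those 9 lists, and none of the 57 overlapped a region of the input list. Acod1 gave 32 of them, Sod2 15, Nos2 6 and Ptgs2 4. The genes were chosen by the regions that earlier work on these same lists had shown at them, so the counts and values are a description and carry no test.

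The libraries came from chromatin immunoprecipitation with sequencing of bone marrow-derived macrophages of the C57BL/6J mouse strain. Cells received the bacterial cell wall component lipopolysaccharide (LPS), the synthetic glucocorticoid dexamethasone (Dex), or both. RelA, the NF-κB subunit also known as p65, was profiled with Dex given 3 h before 0, 3 or 8 h of LPS, with Dex given late and 8 h of LPS, and after 0, 3 or 8 h of LPS without Dex. GR was profiled with LPS and Dex and with Dex alone, after an additional protein cross-linking step that the RelA samples did not have. The labels give neither the hour of the late Dex, nor times for GR, nor the number or sex of the mice. Input DNA of untreated cells made up the remaining library of the 10. Each condition had 1 library, so the spread between repeats of a condition is unknown, and no difference below was tested. Region lists hold no expression of macrophage marker genes, so the cell type was taken from the labels.

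All 4 enzymes belong to the response of macrophages to bacteria. Acod1 makes the antimicrobial and immunoregulatory metabolite itaconate from cis-aconitate in mitochondria. Nos2, the inducible nitric oxide synthase, makes nitric oxide from arginine. Ptgs2, known as COX-2, carries out the committed step of prostaglandin synthesis, and Sod2, the manganese superoxide dismutase of mitochondria, turns superoxide into hydrogen peroxide. RelA enters the nucleus when LPS signalling removes its inhibitors and binds κB elements, and GR, once bound by a glucocorticoid, enters the nucleus and can sit on its own response elements or on other DNA-bound factors, NF-κB among them.

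RefSeq promoter sequences on GRCm38.p6 were at hand for 3 of the 4 genes. They are printed because RelA was listed in each of these windows and κB letters near the gene start are the element it is known to bind. The 250 bases before the annotated start are given in the direction of transcription. Capitals mark matches to any of the searched motifs.

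Acod1, chr14:103046762-103047011, plus strand: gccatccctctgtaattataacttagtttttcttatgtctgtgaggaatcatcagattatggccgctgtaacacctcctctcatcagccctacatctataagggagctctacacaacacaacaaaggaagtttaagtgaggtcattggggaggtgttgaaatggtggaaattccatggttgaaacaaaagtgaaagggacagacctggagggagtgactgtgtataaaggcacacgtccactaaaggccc

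Ptgs2, chr1:150099781-150100030, plus strand: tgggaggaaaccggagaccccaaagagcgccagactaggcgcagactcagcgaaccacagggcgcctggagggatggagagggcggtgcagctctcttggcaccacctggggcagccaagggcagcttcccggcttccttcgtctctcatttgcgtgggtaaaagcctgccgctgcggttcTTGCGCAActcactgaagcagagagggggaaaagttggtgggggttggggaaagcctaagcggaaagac

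Sod2, chr17:13007589-13007838, plus strand: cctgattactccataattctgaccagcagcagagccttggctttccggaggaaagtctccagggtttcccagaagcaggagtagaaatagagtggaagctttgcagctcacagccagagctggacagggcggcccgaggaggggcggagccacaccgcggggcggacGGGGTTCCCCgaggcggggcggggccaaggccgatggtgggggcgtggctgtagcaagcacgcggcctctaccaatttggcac

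The capitals in the Sod2 promoter were a match on both strands to the κB consensus, at bases -83 to -74 from the start. Those in the Ptgs2 promoter were the letters TTNNGCAA of C/EBP factors, also on both strands, at -69 to -62. No exact match to a motif of the search was found in the 250 bases of Acod1, and near matches were not searched for. Of 32851 promoter windows of that length, 7.25% held the κB consensus, 9.56% TTNNGCAA, 6.75% the AP-1 letters TGANTCA and 16.1% AGAACA, which is 1 arm of the glucocorticoid response element. The full response element occurred in 3 windows, 0.00913%, and in none of these genes. Among 11 related enzymes of prostaglandin, nitric oxide, arginine, superoxide and haem metabolism, 7 had an entry. The κB consensus was present in Nos1 and Gch1, AGAACA in Ptgs1 and Ptges, TGANTCA in Cybb, and none of the motifs in the other 2. The promoters are on another build than the regions, so it was not determined whether any listed region covers these bases, or which regions are exonic, intronic or upstream. A region in a window is therefore not assigned to the enzyme's gene itself.

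RelA was listed in the windows mainly after LPS without Dex. With Dex given before LPS the lists held 1 region of the windows at 0 h and none at 3 or 8 h, and with late Dex 2 at 8 h. Without Dex there was 1 region at 0 h, and LPS gave 15 after 3 h and 11 after 8 h. Regions of different libraries that overlapped were joined into 15 RelA sites, of which 11 lay at Acod1, 2 at Sod2 and 1 each at Nos2 and Ptgs2. All 15 were present at 3 h. Below, density means the highest tag density of a region, a signal value on the authors' scale whose normalization between libraries is not stated. A site that is not listed was below an unstated threshold, which is not the same as no signal.

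**Figure D1:**
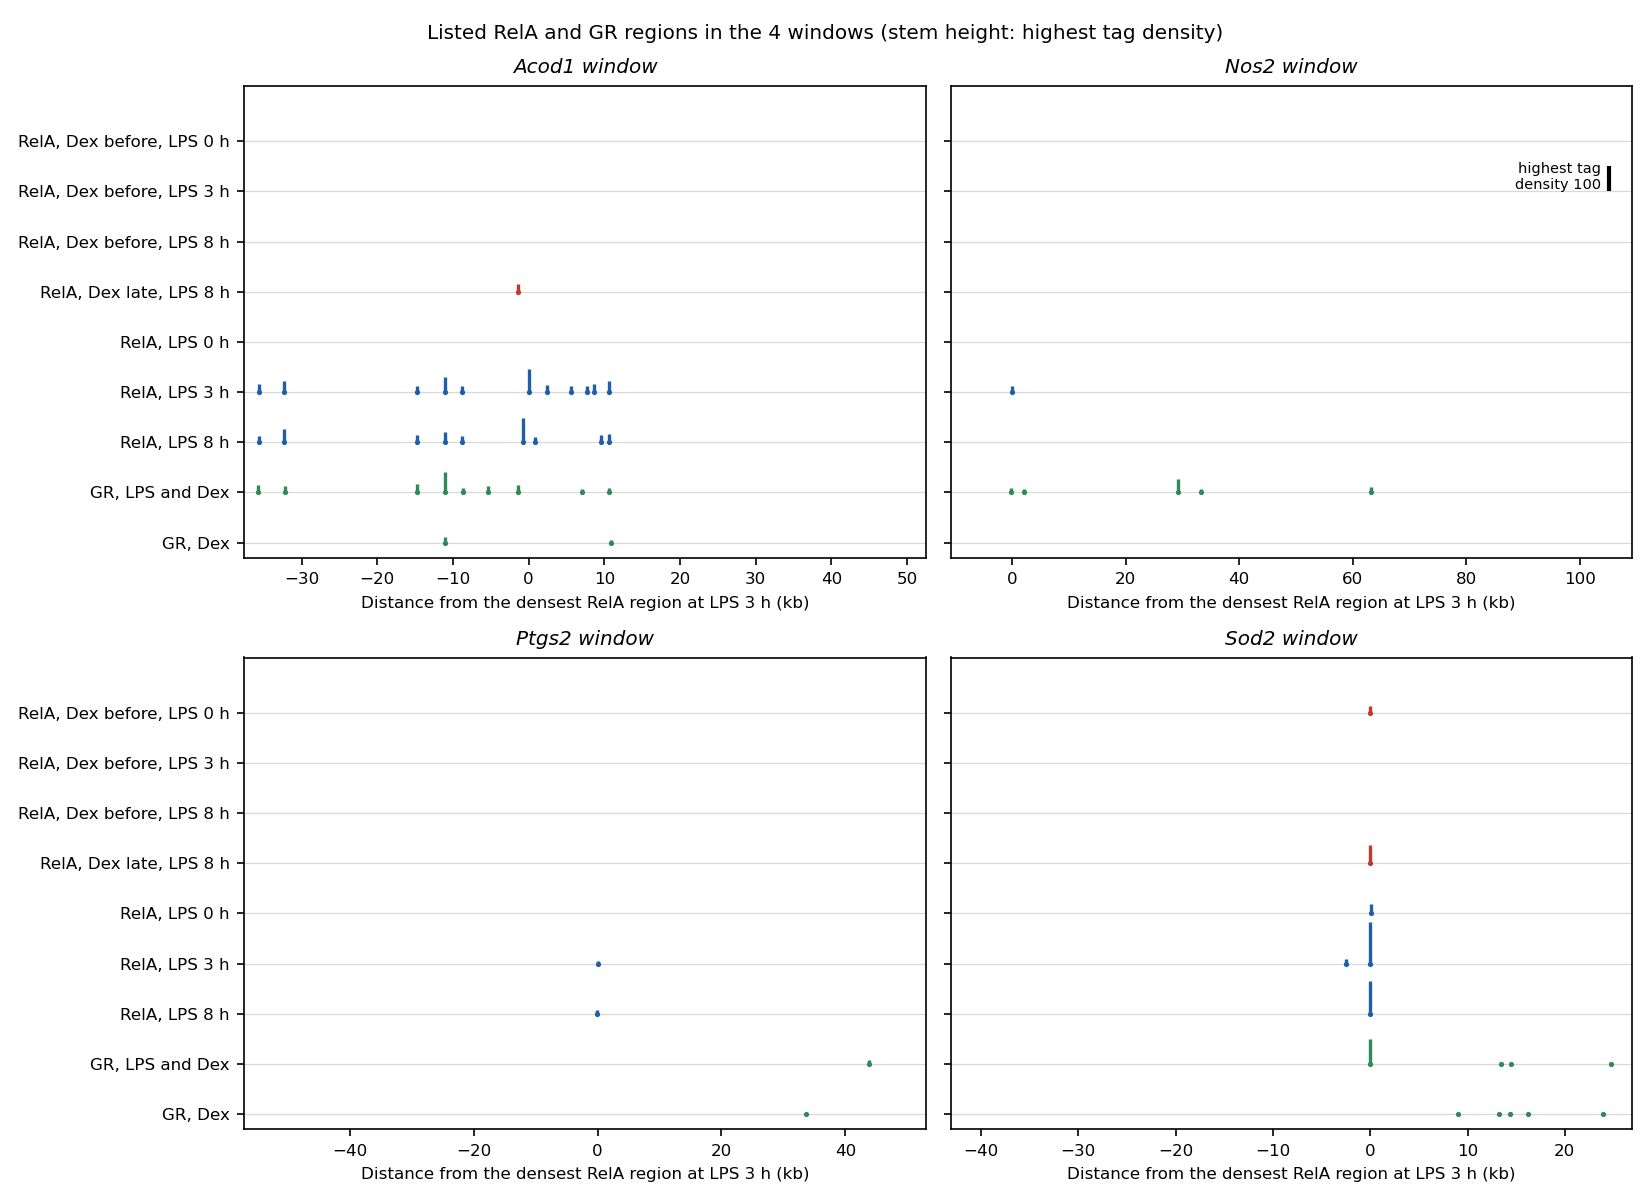
Positions of all 57 listed regions in the 4 windows, as distance in kb from the centre of the densest RelA region at 3 h of LPS (x axis), with 1 line per library. A stem stands at each region's centre, its height is the highest tag density (the scale bar is 100), and a dot marks its base. Acod1 carries 11 RelA stems at 3 h, and the lines for Dex before 3 or 8 h of LPS are empty in every window.

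Sod2 had the densest RelA site of the 4 genes. It spanned chr17:13202574-13203628 (Sod2 site 2), and it was also the single RelA site here that was called without LPS. In the libraries with Dex its density was 27.6 with Dex alone and 74.4 with late Dex at 8 h, and the site was not listed when Dex preceded 3 or 8 h of LPS. Without Dex its density was 37.6 before LPS, 164 after 3 h and 132 after 8 h. Within its own list, counting regions outside input, it ranked 3rd by density of 43 with Dex alone and was the densest of the 225 regions with late Dex. Without Dex it ranked 2nd of 47 regions at 0 h, 2nd of 4972 after 3 h of LPS and 6th of 1878 after 8 h. The site thus stood near the head of each list that contained it.

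Without LPS the density at this site was 27.6 with Dex and 37.6 without, a ratio of 0.733. The median over the 19 regions shared by both lists was 0.837, and the Sod2 ratio was higher than 21.1% of them. Of the 47 resting regions, 19 (40.4%) were also called with Dex alone. At 3 h of LPS without Dex the density of the Sod2 site was 4.36 times that at 0 h, against a median of 3.36 over 37 shared regions, and at 8 h it was 3.52 times, against 3.21 over 36. The Sod2 ratio was higher than 75.7% of these ratios at 3 h and 58.3% at 8 h.

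Outside input, the lists with Dex before 3 and 8 h of LPS held 33 and 15 regions, and those of Dex alone and of 0 h without Dex, which contain Sod2 site 2, held 43 and 47. Of the 43 regions of Dex alone, 7 (16.3%) were called with Dex before 3 h of LPS and 0 with Dex before 8 h (0.0%, with a Wilson upper bound of 8.2%). Sod2 and the other 2 regions of Dex alone that were at least as dense were not called in either list, although all 3 were called at 3 h without Dex. With Dex before 3 h of LPS the list had 3 regions of density 20 or more outside input, and with Dex before 8 h it had 1, and neither had any of 50 or more. Whether depth or recovery of these libraries plays a part was not tested.

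A second RelA region at Sod2, chr17:13200321-13200877 (site 1), lay 1697 bp before the strong one and was listed at 3 h of LPS alone. Its density of 17.8 ranked 2703rd of 4972, so it was an ordinary region of its list. No GR region met it.

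Acod1 carried most of the RelA sites. No region was listed with Dex before 0, 3 or 8 h of LPS, and with late Dex at 8 h there was 1 region of 598 bp (0.664% of the window). Without Dex none was listed at 0 h. After 3 h of LPS, 11 regions covered 12429 bp, 13.8% of the window, with densities of 22.7 to 91.0 and a median of 31.0. After 8 h there were 9 regions over 6862 bp (7.62%), with densities of 21.75 to 97.1 and a median of 28.1. Cut into consecutive stretches of 90000 bp, 1 of which coincides with the Acod1 window, the genome had 3274 stretches with a RelA region at 3 h, and 3 of them held 11 or more. At 8 h, 1386 stretches had a region and the Acod1 stretch, with 9, held the most. These figures describe how crowded the window was, and it was chosen with that known.

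The regions at Acod1 fell into a row of separate sites followed by a nearly continuous stretch. Sites 1 and 2 lay at chr14:103411575-103412238 and chr14:103414920-103415605. After a gap of 16983 bp came site 3 at chr14:103432588-103433010, site 4 at chr14:103436175-103436922 and site 5 at chr14:103438535-103439019. Site 6, at chr14:103445716-103449380, was 3664 bp wide and the fifth widest of the 4972 regions at 3 h. Site 7 followed at chr14:103449773-103450137 and site 8 at chr14:103452772-103453450. Sites 9, 10 and 11, at chr14:103454911-103455714, chr14:103455725-103456618 and chr14:103456637-103459748, were separated by gaps of 11 and 19 bp. Whether sites this close are separate was not determined.

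Site 6 was the densest at Acod1 and the single Acod1 site listed with Dex. With late Dex its density was 30.6 (41st of 225). Without Dex it was 91.0 after 3 h of LPS (28th of 4972) and 97.1 after 8 h (17th of 1878), where the site was listed as 2 regions, the larger of them, with 2134 bp, the widest of the 8 h list outside input. Site 4 came next at 3 h with 58.3 and had 42.3 at 8 h. Site 2 had 42.3 at 3 h and 50.7 at 8 h, and site 11 had 44.2 at 3 h and 33.5 at 8 h, where it was listed as 2 regions, the other of them (chr14:103456896-103457420) with 27.0. Sites 1, 3 and 5 had 32.6, 22.7 and 23.9 at 3 h and 24.9, 28.1 and 22.9 at 8 h. Sites 7, 8, 9 and 10 were listed at 3 h alone, with 26.9, 24.5, 23.5 and 31.0. The order of the sites by density was therefore not the same at both times, and the 4 sites of 3 h alone were not the weakest 4 at that time.

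**Figure D2:**
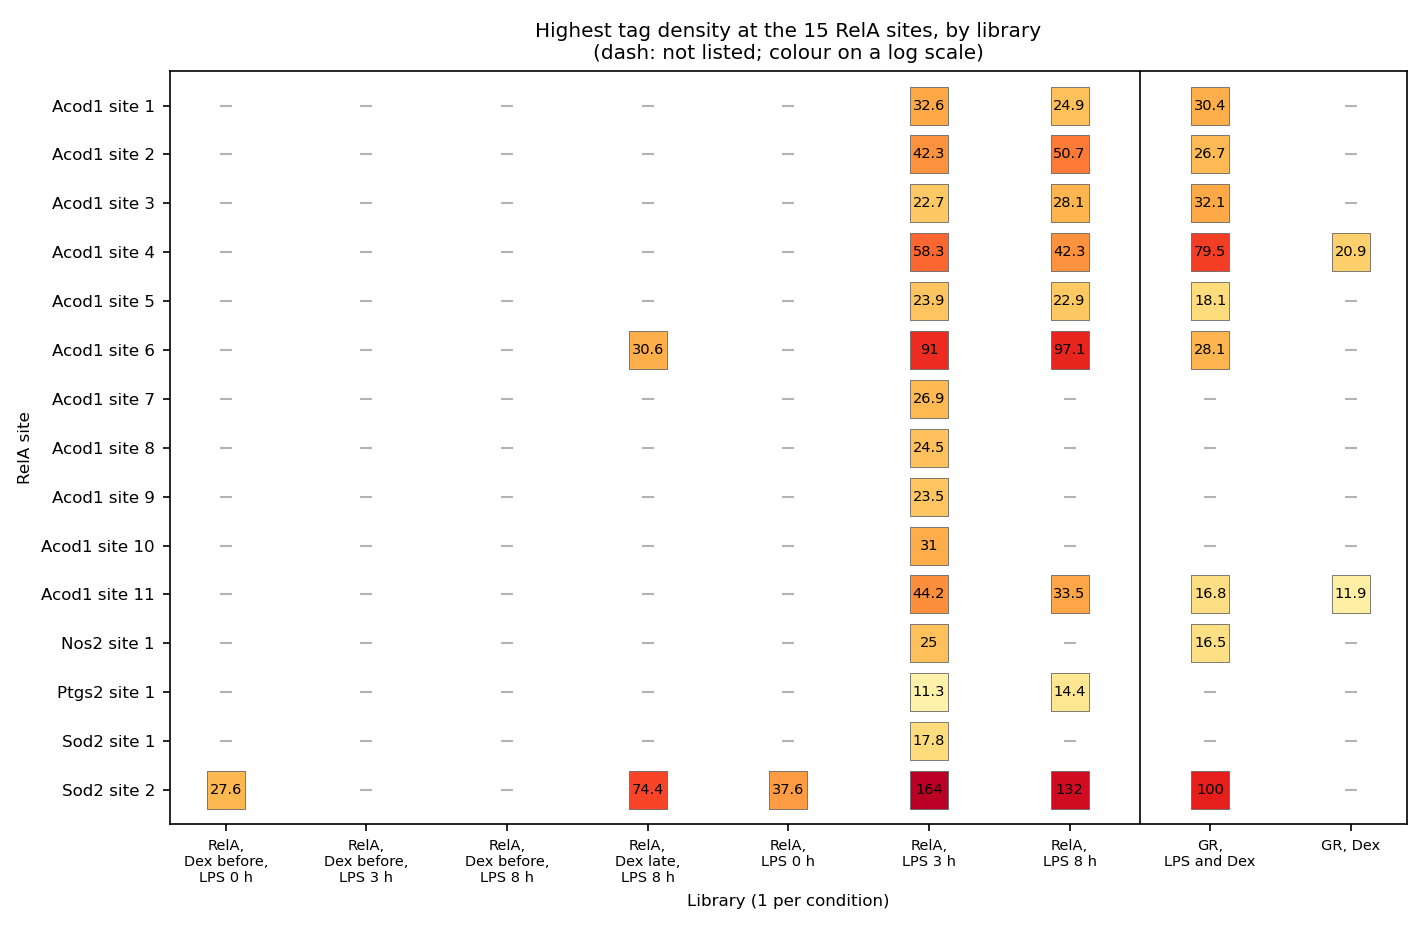
Highest tag density at the 15 RelA sites (rows) in each of the 7 RelA and 2 GR libraries (columns, 1 library each). A filled square gives the value, with colour on a log scale, and a dash means not listed. Sod2 site 2 is listed in 5 of the 7 RelA libraries and Acod1 site 6 in 3, while the other 13 sites are listed at 3 h of LPS alone or at 3 and 8 h.

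Nos2 had a single RelA region, chr11:78700511-78701057, with a density of 25.02 at 3 h of LPS (1286th of 4972). It was not listed in any of the other 6 RelA libraries. Ptgs2 also had a single site, and it was weak. The region was chr1:151946827-151947232 at 3 h, with a density of 11.3 (4551st of 4972), and chr1:151946773-151947030 at 8 h, with 14.4 (1804th of 1878). The authors' z-scores of this site, 8.9997 at 3 h and 11.02 at 8 h, were just above the lowest of each list, 8.88 and 10.9. Ptgs2 thus stood at the edge of what the lists contain at both times.

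Between the LPS times, 9 of the 15 regions of 3 h were called again at 8 h, 60.0% (Wilson 95% interval 35.7 to 80.2), where the share over the whole 3 h list was 31.3%. They were 7 of 11 at Acod1, 1 of 2 at Sod2, 1 of 1 at Ptgs2 and 0 of 1 at Nos2. Seen from 8 h, all 11 regions met one of 3 h (whole list 83.9%), and 1 of the 15 of 3 h met one of 0 h (whole list 0.744%). That region was Sod2 site 2. Of the 28 regions of 3 h at least as dense as Acod1 site 6, Sod2 site 2 among them, 12 were called at 0 h and all 28 at 8 h. Regions of 1 window are not independent of each other, and the intervals here cover counting error only. The windows were also chosen with these regions known. All 11 Acod1 regions of 3 h were among the densest 32.2% of their list, and no share at like density was computed. Of the 6 sites not called at 8 h, Acod1 site 7 and Sod2 site 1 had z-scores at 3 h (9.93 and 9.78) below the lowest of the 8 h list. So did Acod1 site 3 and Ptgs2 site 1 (9.43 and 8.9997), which were called at 8 h. The scores of Acod1 sites 8, 9 and 10 and of Nos2 (13.4, 13.1, 18.1 and 15.1) were above it, although it is not known whether scores compare between lists.

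Where a region was called at both times, density at 8 h was close to that at 3 h. The log2 ratio of 8 h over 3 h ran from -0.47 at site 4 to 0.31 at site 3 of Acod1, and it was -0.31 at Sod2 site 2 and 0.35 at Ptgs2. Over all 1556 shared regions the median was 0.04 (quartiles -0.34 and 0.36). Of these 9 ratios, 5 were below 0. They lay between values exceeding 18.7% and 74.5% of all ratios, so none stood at either end of the spread between regions.

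No RelA region of these windows was listed with Dex before 3 or 8 h of LPS. None of the 15 regions of 3 h was called with Dex before 3 h of LPS, where the share over the whole list was 0.241%, and none of the 11 of 8 h with Dex before 8 h, where it was 0.16%. With shares this low in the whole lists, the absence does not set these windows apart from other RelA regions. Among the 28 regions of 3 h that were at least as dense as Acod1 site 6, 6 were called with Dex before 3 h of LPS.

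With late Dex, 2 of the 11 regions of 8 h were called, Acod1 site 6 and Sod2 site 2, where the share over the whole 8 h list was 10.8%. Both regions of late Dex met GR of LPS and Dex (whole late Dex list 95.1%). Of the 18 regions of 8 h at least as dense as that of Acod1 site 6, 17 were called with late Dex, and both sites belong to this class. Density was lower with late Dex than without at both. At Acod1 site 6 it was 30.6 with late Dex and 97.1 without, a ratio of 0.315, and at Sod2 site 2 it was 74.4 and 132, a ratio of 0.563. The median ratio over the 202 regions in both lists was 0.435. The Acod1 ratio exceeded 15.8% of those ratios and the Sod2 ratio 66.8%. Nos2 had no RelA region at 8 h with or without Dex, and Ptgs2 had 1 without Dex and none with late Dex.

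GR was listed at 23 sites of the windows once overlapping regions of its libraries were joined. With LPS and Dex there were 19 regions, and with Dex alone 8. Of the 19, 4 met a region of Dex alone, 2 each at Acod1 and Sod2, where the share over the whole list of LPS and Dex was 37.4%. Of the 8, 4 met a region of LPS and Dex (whole list of Dex 35.0%). The libraries differed more in strong regions. A density of 10 or more was reached by 16 of the 19 regions with LPS and Dex and 2 of the 8 with Dex, where the shares over the whole lists were 31.9% and 6.8%. The whole lists thus differed in the same direction, on a scale whose normalization is not stated, so the difference is not particular to these windows. Of the 16, 2 met a region of Dex alone (whole list 21.7%), both at Acod1.

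At Acod1 all 9 GR regions with LPS and Dex had a density above 10, from 14.03 to 79.5 with a median of 26.7, while Dex alone gave 2. The strongest, at RelA site 4, spanned chr14:103436113-103436861, with 79.5 with LPS and Dex and 20.9 with Dex alone. The other region of both libraries lay in site 11, with 16.8 with LPS and Dex and 11.9 with Dex. The log2 ratios of LPS and Dex over Dex were 1.93 and 0.49, on either side of the median of 1.16 (quartiles 0.43 and 1.68) over the 3182 regions of Dex with a density of at least 10 that met one of LPS and Dex of that density. The other GR regions at RelA sites had 30.4 at site 1, 26.7 at site 2, 32.1 at site 3, 18.1 at site 5 and 28.1 at site 6 with LPS and Dex, and none of these was listed with Dex alone. Of the 9, 2 met no RelA region in any library, at chr14:103441882-103442411 (24.2) and chr14:103454420-103454740 (14.03).

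At Sod2 the strong RelA site was also the strong GR site. All 28 RelA regions of 3 h at least as dense as Acod1 site 6, this site among them, met GR of LPS and Dex. GR with LPS and Dex was listed at chr17:13202670-13203497 with a density of 100.3, the 400th of 51358 regions, and GR with Dex alone was not listed there. The centres of the RelA region at 3 h and this GR region were 17.5 bp apart. The remaining GR regions of the window had densities under 10 in both libraries. They were 4.68 to 6.01 with LPS and Dex (3 regions) and 2.39 to 6.57 with Dex alone (5 regions), and 2 sites were shared. None of them met a RelA region. The highest score among the regions of Dex alone, 37.3, was at chr17:13217096-13217838, where the density was 6.57.

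At Nos2 GR was listed 5 times with LPS and Dex and never with Dex alone. The region at chr11:78700382-78700806 (16.5) met the RelA region of 3 h. The strongest, chr11:78729753-78730382, had a density of 52.8, the 1652nd of 51358, and no RelA region in any library. The others lay at chr11:78702825-78703088 (11.7), chr11:78733946-78734225 (13.7) and chr11:78763760-78764291 (21.7), also without RelA. Nos2 therefore had more GR sites than RelA sites. So did the whole lists outside input, with 51358 GR regions of LPS and Dex and 4972 RelA regions at 3 h of LPS.

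At Ptgs2 GR and RelA were apart. A GR region with LPS and Dex was listed at chr1:151990618-151990973 with a density of 14.9, and one with Dex alone at chr1:151980484-151980925 with 2.95. Neither met the other or the RelA site.

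**Figure D3:**
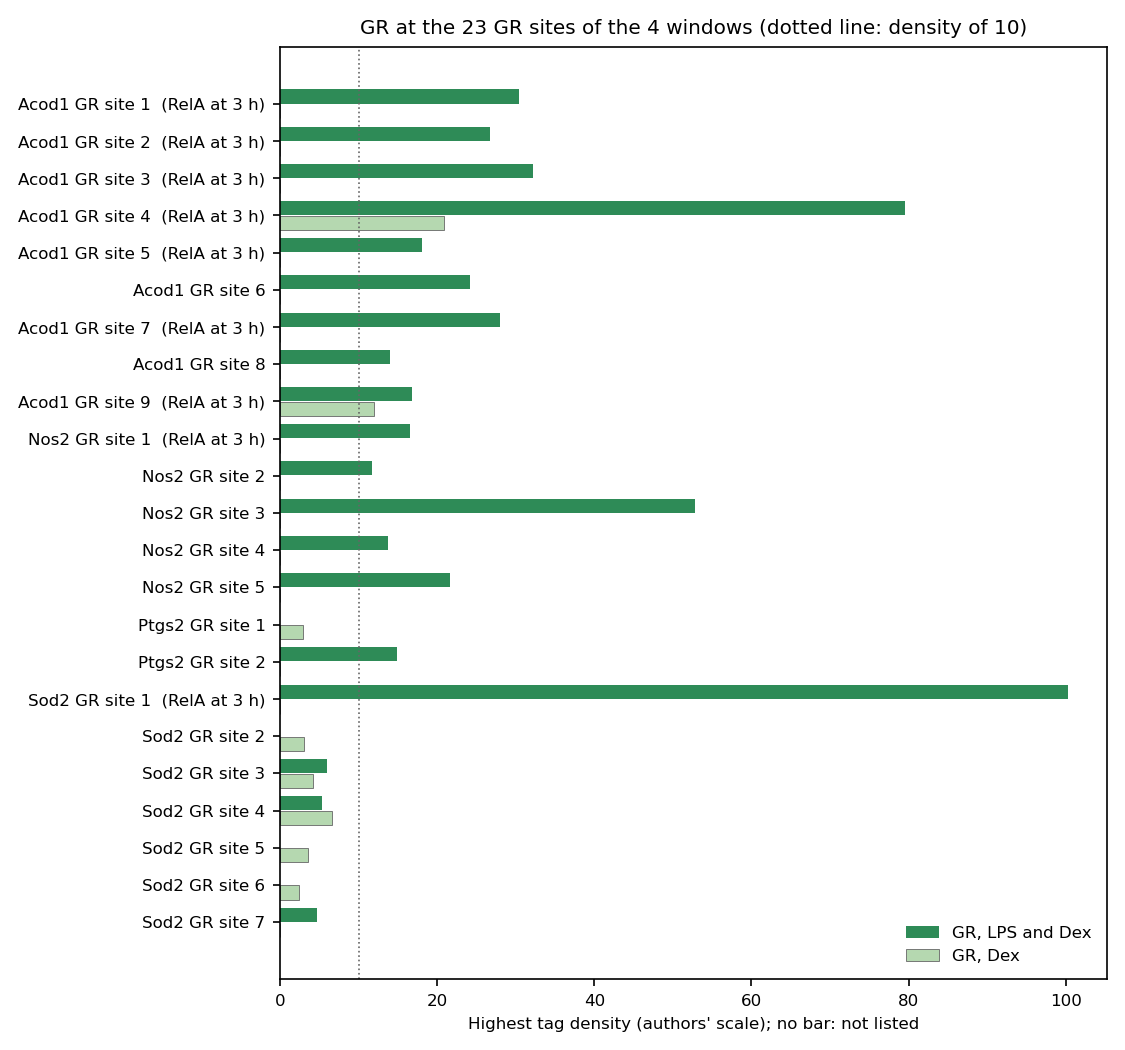
Highest tag density (x axis, authors' scale) of GR at the 23 GR sites of the windows, with LPS and Dex (dark bars) above Dex alone (light bars), 1 library each. A missing bar means not listed, the dotted line is a density of 10, and sites that met RelA at 3 h of LPS are marked. The bars of Sod2 GR site 1 (100.3) and Acod1 GR site 4 (79.5) are the longest, and the light bars reach 20.9 at most.

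RelA and GR were set side by side across the windows, in cells that had been treated and cross-linked differently. Of the 15 RelA regions of 3 h, 9 met GR of LPS and Dex, 60.0% (35.7 to 80.2), and the share over the whole 3 h list was 62.0%. Of the 15, 2, both at Acod1, met GR of Dex alone, where the share over the whole list was 17.5%. Of the 11 regions of 8 h, 8 met GR of LPS and Dex (whole 8 h list 85.8%). The shares of the 3 h regions were thus near those of all RelA regions. From the side of GR, 9 of the 16 regions of LPS and Dex with a density of at least 10 met RelA of 3 h (whole list 18.7%). They were 7 of 9 at Acod1, 1 of 5 at Nos2, 1 of 1 at Sod2 and 0 of 1 at Ptgs2. The windows were chosen with their RelA regions known, so the gap from the whole-list share is not a result about them.

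The RelA sites that were called again at 8 h were for the most part those with GR of LPS and Dex. At Acod1 the 7 sites of both times were the 7 with GR, and the 4 of 3 h alone had none. Of those 4, site 7 lay 393 bp from site 6, and sites 9 and 10 adjoined site 11 with gaps of 11 and 19 bp. This division at Acod1 therefore depends on how regions so close together were split. Sod2 followed the same division, with site 2 in the first class and site 1 in the second. Nos2 had GR without RelA at 8 h, and Ptgs2 had RelA at 8 h without GR. In all, 8 of 9 regions called again met GR, and 1 of 6 not called again did. Over the whole 3 h list the shares were 88.8% and 49.9%, so the share among regions called again was near that of the list. For those not called again it was lower than in the list, but they were few. The windows were chosen with these regions known, so neither share is a result about them. Where RelA and GR regions met, the distance between their centres was 17.5 to 190.0 bp at 8 of the 9 sites. It was 1417 bp at Acod1 site 6, where the RelA region was wide, and the median of the 9 was 61.5 bp.

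**Figure D4:**
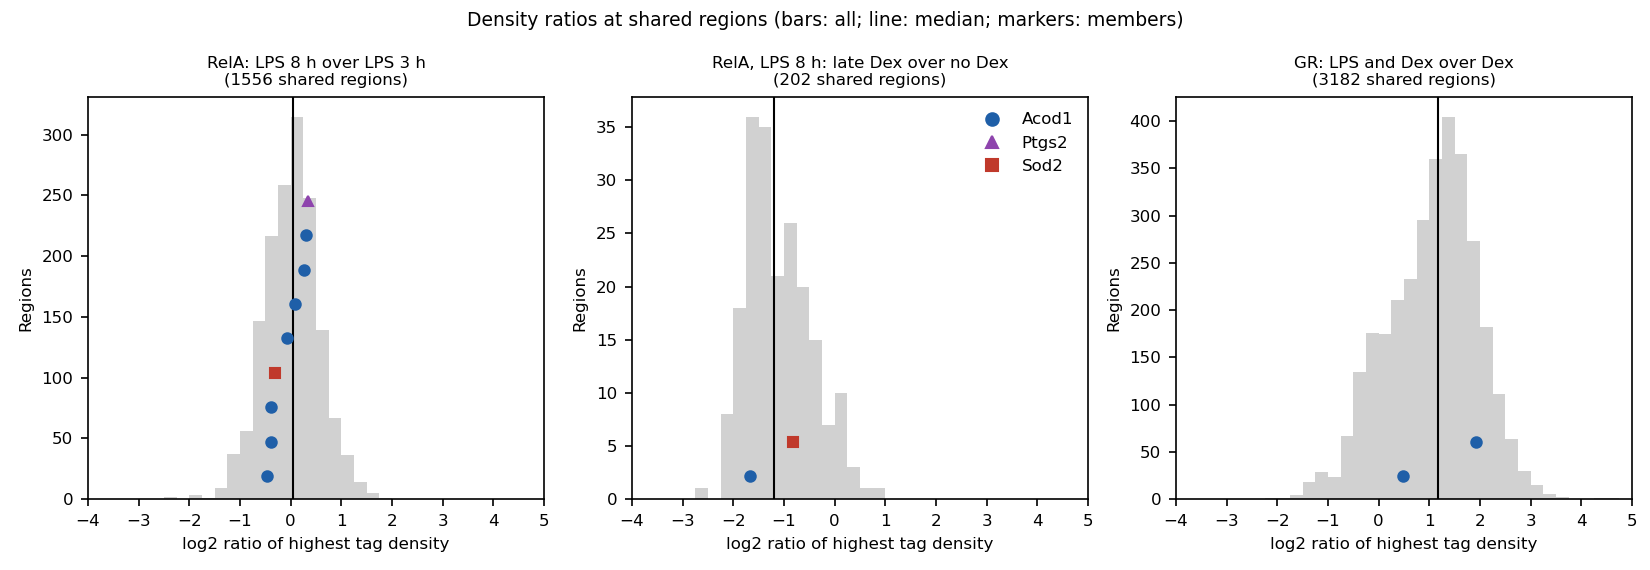
Log2 ratio of highest tag density (x axis) at regions shared by a pair of libraries, with the number of regions on the y axis (grey), the median as a line and the members as markers whose height has no meaning. The 9 RelA ratios of 8 h over 3 h lie between -0.47 and 0.35. Acod1 and Sod2 lie on either side of the median for late Dex over no Dex, and so do the 2 Acod1 ratios of GR with LPS and Dex over Dex.

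The windows were bounded by position, and the nearest regions beyond their ends were as follows. For RelA at 3 h, the closest region outside lay 12039 bp after the Ptgs2 window (chr1:152012039-152012314, density 9.54) and 22239 bp after that of Nos2 (chr11:78832239-78832702, 22.8). At Acod1 and Sod2 the nearest lay 174877 and 212418 bp before the window, with densities of 22.0 and 10.6. The RelA regions nearest to an end from within were Acod1 site 1, 1575 bp from it, and the Nos2 region, 10511 bp from it. GR regions of LPS and Dex with a density of at least 10 lay 11771 bp after the Ptgs2 window (51.5), 15016 bp after that of Sod2 (76.2), 2743 bp before that of Nos2 (20.3) and 2513 bp before that of Acod1 (24.3). The Ptgs2 window thus ended short of a stronger GR region that overlapped the RelA region beyond its end.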

How the data were processed

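The lists of enriched regions, 1 per library, were analysed as the authors deposited them. Per the submitters' processing notes, CASAVA was used and the genome build was mm9. The caller of the regions, its threshold, any duplicate filter and the read depth are not given in the sources used here, so precision set by depth is unknown. Highest tag density is a signal value, per the file headers, and its scaling between libraries is not stated. The z-score per region is the authors' own score, and the p-value that they deposited for each region was not used. Groups came from the sample labels, since the names of some deposited lists carry other times.

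An overlap was at least 1 shared bp, and regions overlapping input were left out of every comparison; the numbers of regions per list and in all 9 lists include them unless stated. Shares carry Wilson 95% intervals. All RelA sites and all GR regions with a density of at least 10 were described, and the other GR regions given by range. Ranks and ratios were computed over whole lists with Python 3.11.15, pandas 2.3.3 and scipy 1.17.1, and the overlap code was tested on simulated data. No model or test was fitted. Members, windows and motif lists were chosen with earlier results of these data known. Alternatives were 50% overlap of both regions, centres within 250 bp, input-overlapping regions kept, a z-score of at least 11, a density of at least 10, windows shortened by 10000 bp at each end, and merging within 500 bp.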

Additional observations from a re-analysis of the deposited data

How the results depend on the processing

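Of 77 recomputed counts (13 results under 7 settings, where a setting applies), 71 stayed within 1.5 times the value in the report. The 71 include counts that could not move. Keeping input-overlapping regions could change none, because no region of the windows overlapped input. With an overlap of 50% or more of each region required, 1 of the 11 RelA regions of 8 h was called with late Dex (2 in the report), 1 of the 15 of 3 h met GR of Dex alone (2), and 2 of 19 GR regions of LPS and Dex met one of Dex alone (4). With centres within 250 bp, 1 of the 11 was called with late Dex. The wide RelA region at Acod1 site 6 is the one not counted with late Dex in both cases. With a density of at least 10 in every list, 2 GR regions of Dex alone were left (8 in the report), and 2 of 16 regions of LPS and Dex met one of Dex alone. Some counts within the limit also shifted. With 50% overlap, 6 of the 15 RelA regions of 3 h met GR of LPS and Dex (9), which is at the limit. Merging within 500 bp left 12 RelA regions of 3 h. Of these 12, 9 were called at 8 h and 9 met GR of LPS and Dex (9 of 15 each in the report). No whole-list share is given for these settings. The counts of 0 with Dex before 3 or 8 h of LPS were 0 under each setting run on them, but this outcome was fixed in advance. These lists held no region in the windows, and none of the settings could add one. No paired analysis was possible because each condition had 1 library, and no library could be left out for the same reason. Unknown depth limits every statement that a region was not listed.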
